A study of Mus musculus with 11 samples.

Results

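Fibroblasts from lungs of newborn mice that lack peptidylarginine deiminase 2 (PAD2KO) were sequenced in 2 batches, and the PAD2KO libraries of batch 2 are compared here with the PAD2KO libraries of batch 1. The members were defined by genotype and batch label. This comparison and the gene lists below were chosen with earlier results of these data known. PAD2KO 6 and PAD2KO 7 came from batch 2, and PAD2KO 1, PAD2KO 2 and PAD2KO 3 from batch 1. These are 5 of the 11 libraries of the study. The other 6 libraries are wild type (WT), 3 in each batch, and enter only where the batch difference of the PAD2KO cells is set beside that of the WT cells. All 11 libraries are labelled as sorted primary fibroblasts from lung, each library as a separate number, and nothing says whether numbers are animals, pools or cultures, so the p-values rest on a spread among libraries that could be technical. The title of the series names basal and TNF-induced expression, and the labels give no treatment, age in days, sex, strain or sorting gate for any library. The labels call the difference a batch and no more, so a treatment, a culture condition or a day of work that went with the batch cannot be told apart from it.

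Lung fibroblasts make the collagens, elastic fibres and proteoglycans of the alveolar wall and send growth factors to the epithelium during alveolar development. When stimulated by injury or by inflammatory cytokines such as TNF, cultured fibroblasts are known to secrete IL-6 family cytokines, chemokines, prostaglandins and matrix metalloproteases, partly through the transcription factors NF-kB and AP-1, a dimer of JUN and FOS family proteins. Peptidylarginine deiminase 2, the product of Padi2, turns arginine residues of proteins into citrulline.

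Estimated counts of named genes summed to 1238795 to 1421243 in the 5 PAD2KO libraries, over 14578 to 14849 genes with counts, and a gene with 0 counts could still be as high as 2.11 to 2.42 CPM (CPM are counts scaled to a common library total). Of these counts 8.52% to 10.7% belonged to Rn18s, the gene of 18S ribosomal RNA, and 1.51% to 2.43% to mitochondrial mRNAs, with overlapping ranges in the batches. Padi2 had 1, 0, 4, 0 and 4 counts in PAD2KO 1, 2, 3, 6 and 7 and 3 counts in all 6 WT libraries together, so its level does not check the genotype labels. All 10 pan-fibroblast markers were detected, with a summed level of 16554, 17835 and 17603 CPM in batch 1 and 11051 and 10314 CPM in batch 2; 5 fell, the 3 main fibrillar collagen chains, Dcn and Pdgfrb, and 2 rose, Thy1 and Vim (median log2 difference -0.66). Summed levels of the marker lists of lymphocytes, erythroid cells, endothelium and epithelium reached at most 39.7 CPM in any PAD2KO library, with 4 of 10, 5 of 7, 1 of 11 and 5 of 12 markers at 0 in all 5. The leukocyte list reached 79.1, 37.5 and 68.1 CPM in batch 1 and 134 and 80.9 CPM in batch 2, and Ptprc, the pan-leukocyte gene CD45, stayed between 0 and 2.93 CPM. Of its 3 members tested, Cd14 rose from 12.7, 11.1 and 8.79 CPM to 43 and 29.9 CPM (log2 difference 1.74 ± 0.30 (SE), adjusted p = 4.29e-04), and 2 were not called. Adgre1, which was not tested, stood at 1.58, 0 and 0 CPM in batch 1 and 13.8 and 0.786 CPM in batch 2. The Schwann and neural list, with 4 of 8 markers at 0 in all 5, summed to 75.2, 89 and 87.2 CPM in batch 1 and 150.0 and 137 CPM in batch 2, without overlap, and the mesothelial list to 703, 342 and 454 CPM in batch 1 and 345 and 290.0 CPM in batch 2. Of the neural markers S100b, a calcium-binding protein gene, rose from 15, 19.5 and 19 CPM to 111 and 88 CPM (log2 difference 2.47 ± 0.21 (SE), adjusted p = 2.00e-07), and Tubb3 fell.

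The libraries also differed within batch 1. Xist, the RNA of the inactive X chromosome, stood at 2.37, 5.56 and 549 CPM in batch 1 and 428 and 317 CPM in batch 2, and the Y-linked gene Ddx3y at 74.4, 64.7 and 0 CPM in batch 1 and 0 and 0.786 CPM in batch 2. PAD2KO 1 and PAD2KO 2 thus carried Y-linked transcripts and almost no Xist, whereas PAD2KO 3 and both libraries of batch 2 showed the opposite pattern, so this pattern was not balanced between the batches. Results are also given without PAD2KO 1 and PAD2KO 2, an alternative added after the data were seen. In the gene lists below, counts of 2 or fewer members in a direction moved by at most 2 under the alternatives run for lists, except the chemokine rises. In a principal component analysis of the 5 libraries the batches lay apart on the first component (57.6% of the variance), and the second (15.9%) parted PAD2KO 1 and 6 from PAD2KO 2 and 7.

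Of 10176 genes tested with edgeR's quasi-likelihood test, 1698 (16.7%) differed between the batches at a Benjamini-Hochberg adjusted p under 0.05. Of all genes tested, 893 (8.78%) rose in batch 2 and 805 (7.91%) fell, and the median log2 difference of all genes tested was -0.01. In bulk RNA, fewer cells of a type and less RNA per cell cannot be told apart. More than 2-fold differences were found for 706 of the called genes and more than 4-fold differences for 182. Pairs of libraries within a batch had 29 to 41 genes more than 4-fold apart, and pairs taken across the batches 170 to 195. Leaving out PAD2KO 7 left 961 calls, PAD2KO 6 left 1077 and PAD2KO 3 left 1131, and 607 genes were called whichever single library was left out. DESeq2 called 890 genes, and a fit with the deposited gene lengths as offsets called 658, in which 8 of the 1698 genes had the opposite sign.

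The genes that rose most in PAD2KO batch 2 included secreted cytokines, proteases and hormones, ranked by size of the difference among genes whose mean log2 CPM was 3 or more. Genes of this ranking, and of the falls below, also had to show no overlap of the batches. That held for 1696 of the 1698 called genes. How many of all genes tested showed no overlap was not counted, so this figure has no background share beside it. Il11, a cytokine of the IL-6 family made by stromal cells, stood at 6.33, 5.56 and 2.20 CPM in batch 1 and 198 and 156 CPM in batch 2, with values here and below in the order PAD2KO 1, 2, 3 and then 6, 7. Both batch 2 libraries lay far above all of batch 1 (log2 difference 5.22 ± 0.25 (SE), adjusted p = 1.09e-10). Fosl1, which encodes the FOS family member FRA-1, was measured at 11.9, 1.39 and 1.47 CPM in batch 1 and 111 and 71.5 CPM in batch 2. PAD2KO 1 was the highest library of batch 1 (log2 difference 4.26 ± 0.60 (SE), adjusted p = 0.00563). Lif, a cytokine of the same family as Il11, was at 6.33, 5.56 and 8.06 CPM in batch 1 and 105 and 37.7 CPM in batch 2, with PAD2KO 6 the higher library (log2 difference 3.40 ± 0.50 (SE), adjusted p = 0.00257). Lif and Ptgs2 were called in 4 of the 5 fits that leave out a library.

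Spp1, the gene of the secreted phosphoprotein osteopontin, rose from 670.1, 378 and 359.7 CPM to 5633 and 4133 CPM (log2 difference 3.38 ± 0.35 (SE), adjusted p = 0.00540). Mmp10, the metalloprotease stromelysin-2, was found at 55.4, 52.1 and 79.9 CPM in batch 1 and 762 and 508 CPM in batch 2 (log2 difference 3.35 ± 0.22 (SE), adjusted p = 6.91e-06). Ptgs2, the inducible cyclooxygenase COX-2, had 186, 122 and 108 CPM in batch 1 and 1588 and 855 CPM in batch 2, again higher in PAD2KO 6 than in PAD2KO 7 (log2 difference 3.15 ± 0.40 (SE), adjusted p = 0.0143). In the deposited TPM (length-scaled transcript shares) the Ptgs2 mean went from 110 to 405, a smaller rise than by counts. Mean TPM went from 495 to 4862 for Spp1 and from 52.3 to 499 for Mmp10. In all of these genes the lowest batch 2 library exceeded the highest batch 1 library, which the rule for naming them required. Stc1, the secreted glycoprotein stanniocalcin-1, measured 15.8, 7.65 and 15.4 CPM in batch 1 and 177 and 88 CPM in batch 2 (log2 difference 3.36 ± 0.39 (SE), adjusted p = 0.00106), and Gap43, a membrane-associated protein of growing axons, 1.58, 3.48 and 2.93 CPM in batch 1 and 38.9 and 45.6 CPM in batch 2 (log2 difference 3.92 ± 0.36 (SE), adjusted p = 5.76e-07). Liph, a membrane-bound phospholipase, and Il18rap, an accessory chain of the IL-18 receptor, rose by 3.47 and 3.20 on the log2 scale. The part of the neural markers given above in the Gap43 rise was not tested.

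The other 5 genes of the rising group belong to families of related genes, some near-identical, between which the authors' counting may have divided reads. Mcpt8, a mast cell and basophil protease gene, stood at 20.6, 29.2 and 25.6 CPM in batch 1 and 545 and 611 CPM in batch 2 (log2 difference 4.51 ± 0.15 (SE), adjusted p = 1.23e-12). Gzme, a granzyme gene, was at 19, 15.3 and 12.5 CPM in batch 1 and 292 and 303 CPM in batch 2 (log2 difference 4.26 ± 0.17 (SE), adjusted p = 9.94e-12). Its relative Gzmd rose from 0, 4.17 and 0.733 CPM to 38.9 and 37.7 CPM (log2 difference 4.41 ± 0.51 (SE), adjusted p = 1.20e-05), and Gzmf was at 0. Mcpt9, a relative of Mcpt8, stayed at or below 1.57 CPM in the 5 libraries. The mast cell and basophil genes Cpa3, Ms4a2 and Cma1 stayed at or below 1.62 CPM in each of the 5 libraries and Fcer1a at 0. The neutrophil and mast cell list summed to 29.3, 34.8 and 36.6 CPM in batch 1 and 48.7 and 24.4 CPM in batch 2. That sum was mostly Kit in batch 1, which fell, and mostly S100a8 in batch 2, which rose, both given below. The list's part in these rises was not tested. Prl2c2 and Prl2c3, prolactin family members known as proliferins, rose by 5.09 and 4.07 on the log2 scale, and Hsd3b1, a steroid dehydrogenase gene, by 3.15. Mean TPM of Prl2c3 went from 10.1 to 67, a smaller rise than by counts, and that of Prl2c2 from 4.19 to 118.

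Promoter sequences were examined for 11 of these 15 genes, because Fosl1 and Jun, which encode AP-1 subunits, both rose: Jun was at 297, 257 and 237 CPM in batch 1 and 514 and 413 CPM in batch 2 (log2 difference 0.82 ± 0.13 (SE), adjusted p = 2.54e-04). The AP-1 site TGANTCA, which reads alike on both strands and does not occur inside the cyclic AMP element TGACGTCA, was searched in RefSeq windows of 300 bases, 250 before and 50 after each annotated start, on build GRCm38.p6. It lay in 4 of 13 windows of the rising genes (30.8%; Il11, Lif, Mmp10 and Prl2c3), in 7.81% of all 32851 windows, in 4.90% of windows of genes tested, in 7.32% of windows of genes that rose and in 6.48% of windows of genes that fell. Of 3 other motifs searched on both strands, the cyclic AMP element and the CArG box lay in 0 of the 13 windows, and the sterol element core CACCCCAC in 1, that of Lif; they lay in 1.79%, 1.63% and 2.87% of all windows. The 250 bases upstream of the start are shown with the site in capitals for Mmp10, Lif and Il11, which are 3 of the 4 genes counted, and for Mmp13. Mmp13, a collagenase gene that also rose, is outside the 15 genes and the 13 windows and was added after its site was seen. Prl2c3, which has near-identical copies, is not shown. The positions are those of GRCm38.p6 and were not joined to the data, whose processing notes name GRCm39.
Mmp10, chr9:7502092-7502341, plus strand, site beginning 63 bases before the start: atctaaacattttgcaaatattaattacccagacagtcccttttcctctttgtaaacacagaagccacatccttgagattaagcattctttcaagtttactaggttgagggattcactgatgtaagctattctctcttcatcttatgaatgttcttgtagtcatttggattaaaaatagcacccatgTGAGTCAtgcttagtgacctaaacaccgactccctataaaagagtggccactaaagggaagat
Mmp13, chr9:7272264-7272513, plus strand, site beginning 35 bases before the start: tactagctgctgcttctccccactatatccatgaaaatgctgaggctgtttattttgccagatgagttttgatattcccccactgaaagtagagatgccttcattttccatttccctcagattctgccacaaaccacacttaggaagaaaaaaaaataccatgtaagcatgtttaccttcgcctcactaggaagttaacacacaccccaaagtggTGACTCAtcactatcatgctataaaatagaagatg
Lif, chr11:4257318-4257567, plus strand, site beginning 228 bases before the start: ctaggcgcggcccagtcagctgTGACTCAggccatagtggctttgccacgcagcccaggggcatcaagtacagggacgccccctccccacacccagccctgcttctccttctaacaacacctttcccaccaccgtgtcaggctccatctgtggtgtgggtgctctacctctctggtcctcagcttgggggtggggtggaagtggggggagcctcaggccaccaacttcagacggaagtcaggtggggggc
Il11, chr7:4778142-4778391, minus strand, site beginning 98 bases before the start: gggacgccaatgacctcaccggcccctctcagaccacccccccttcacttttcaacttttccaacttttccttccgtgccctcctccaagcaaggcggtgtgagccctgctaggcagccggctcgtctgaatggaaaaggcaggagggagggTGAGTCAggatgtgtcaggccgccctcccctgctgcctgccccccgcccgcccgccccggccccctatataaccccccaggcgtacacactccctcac
A match describes these letters only; binding was not measured.

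The largest falls included matrix and secreted signalling genes. Ecrg4, a secreted peptide precursor, stood at 28.5, 31.3 and 19.8 CPM in batch 1 and had 0 counts in both libraries of batch 2, which makes it at least 22.2-fold lower, taking 3 counts over the group as the limit (adjusted p = 4.53e-06). Kit, a receptor tyrosine kinase, fell from 29.3, 33.4 and 35.2 CPM to 0 and 1.57 CPM. With 2 counts in batch 2 the ratio of batch 1 to batch 2 was 41.0 (95% exact counting interval 11.1 to 342; adjusted p = 2.92e-06). Shisa3, a membrane adaptor that restrains Wnt and FGF receptors, and Serpinb8, an intracellular protease inhibitor, had 2 and 3 counts in batch 2. Their ratios were 29.0 (7.80 to 243) and 14.8 (4.86 to 73.4). Mean TPM of Kit went from 8.25 to 0.727, a smaller fall than by counts, and that of Shisa3 from 8.30 to 0.268.

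Adamts15, a protease that cleaves large proteoglycans, stood at 231, 265 and 278 CPM in batch 1 and 9.73 and 13.4 CPM in batch 2 (log2 difference -4.46 ± 0.20 (SE), adjusted p = 5.82e-11). Ogn, the small leucine-rich proteoglycan osteoglycin, was at 937, 674 and 1035 CPM in batch 1 and 36.5 and 43.2 CPM in batch 2 (log2 difference -4.46 ± 0.21 (SE), adjusted p = 1.30e-08), and Podn, a proteoglycan of the same class, at 150.3, 183 and 218 CPM in batch 1 and 10.5 and 7.07 CPM in batch 2 (log2 difference -4.37 ± 0.25 (SE), adjusted p = 1.57e-09). By the naming rule the highest batch 2 library of each gene lay below the lowest of batch 1, and for these 3 genes it lay far below. Ccn5, a matricellular protein, measured 34, 59.8 and 61.5 CPM in batch 1 and 2.43 and 3.14 CPM in batch 2 (log2 difference -4.17 ± 0.43 (SE), adjusted p = 2.04e-06). Bmp3, a ligand of the BMP family, measured 48.3, 43.1 and 58.6 CPM in batch 1 and 2.43 and 3.93 CPM in batch 2 (log2 difference -3.93 ± 0.37 (SE), adjusted p = 6.10e-07), and Vegfd, a lymphatic growth factor, 206, 157 and 210.3 CPM in batch 1 and 18.7 and 18.9 CPM in batch 2 (log2 difference -3.34 ± 0.20 (SE), adjusted p = 2.49e-09). Enpp2, the lysophosphatidic acid producing enzyme autotaxin, had 165, 100.1 and 108 CPM in batch 1 and 17 and 7.86 CPM in batch 2 (log2 difference -3.31 ± 0.34 (SE), adjusted p = 9.39e-05). Ptn, the growth factor pleiotrophin, fell by 3.73 on the log2 scale and was called in 3 of the 5 fits that leave out a library. The protease-like Prss35, the thromboxane receptor Tbxa2r and the pseudokinase Nrbp2 fell with log2 differences of -4.24, -3.79 and -3.91.

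**Figure D1:**
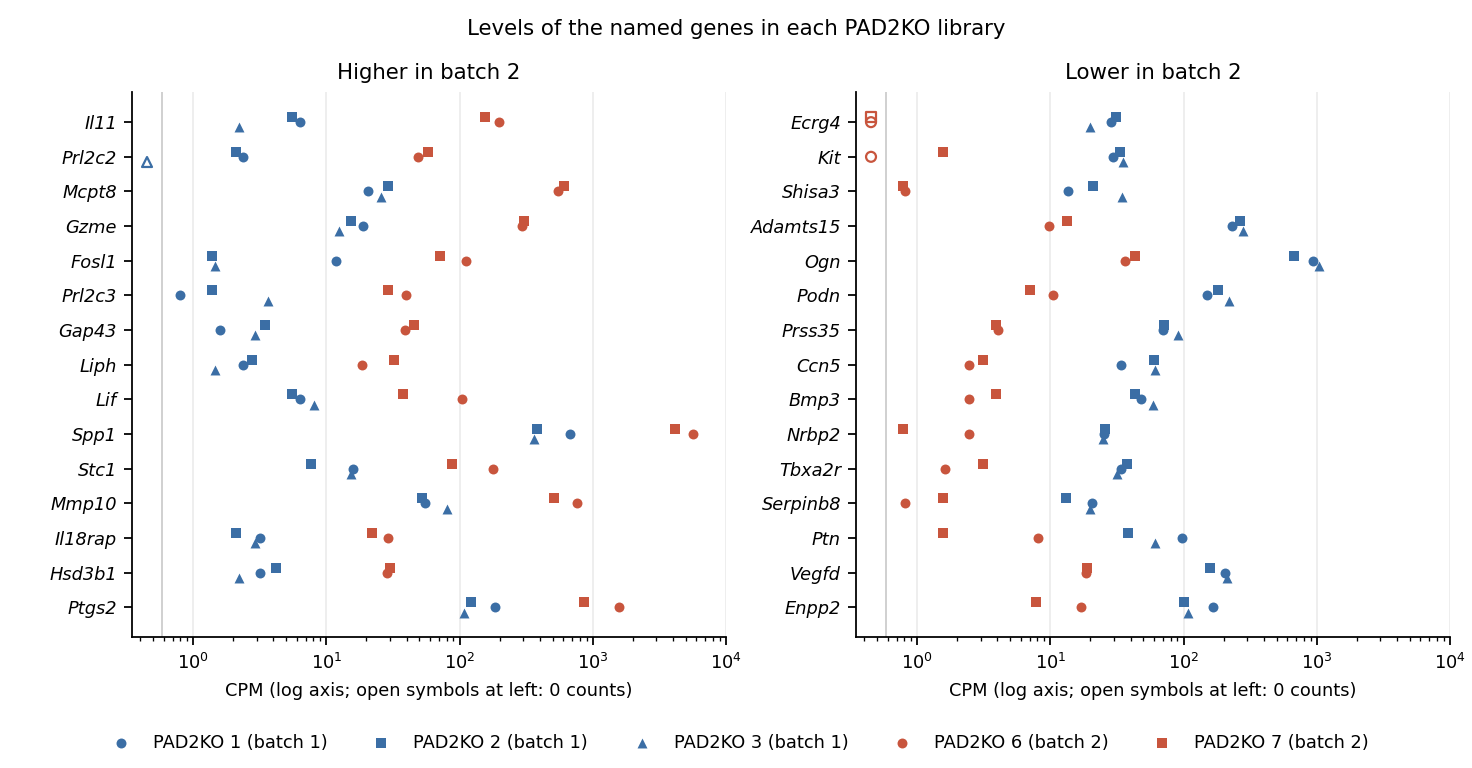
CPM on a log axis of the 15 genes with the largest rises (left) and the 15 with the largest falls (right) in each PAD2KO library. Blue symbols are batch 1, red symbols batch 2, and open symbols at the left edge stand for 0 counts. The red and blue symbols of a gene do not overlap for any of the 30 genes, which the rule for choosing them required.

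Cytokine and receptor genes changed in both directions. Of 22 cytokine and receptor genes tested, 7 rose and 8 fell, with a median log2 difference of -0.01. Counts in this and the following lists stand beside 8.78% higher and 7.91% lower over all genes tested. Whether a list differed from these shares was not tested. The genes of this paragraph beyond Il11, Il1rl1, Il6st and Lifr were picked for their roles after their values were seen, as was the grouping into ligands and receptors. Beside Il11 and Lif, the ligand genes Il6 and Clcf1 rose: Il6 stood at 1.58, 4.87 and 4.40 CPM in batch 1 and 18.7 and 11 CPM in batch 2 (log2 difference 1.98 ± 0.51 (SE), adjusted p = 0.0109), and Clcf1 at 23.7, 17.4 and 13.9 CPM in batch 1 and 42.2 and 32.2 CPM in batch 2 (log2 difference 1.03 ± 0.27 (SE), adjusted p = 0.0147). These ligand genes were higher in both batch 2 libraries, at low counts for Il6. Il6st, the gene of the shared signalling chain gp130, fell from 1449, 1451 and 1417 CPM to 404 and 462 CPM (log2 difference -1.73 ± 0.12 (SE), adjusted p = 2.26e-08). Chains that give specificity for LIF, oncostatin M, IL-11 and IL-6 fell as well: Lifr stood at 246, 236 and 300.4 CPM in batch 1 and 127 and 136 CPM in batch 2 (log2 difference -0.98 ± 0.14 (SE), adjusted p = 1.00e-04), Osmr at 685, 561 and 645 CPM in batch 1 and 431 and 371 CPM in batch 2 (log2 difference -0.65 ± 0.13 (SE), adjusted p = 0.00145), Il11ra1 at 90.2, 75.1 and 69.6 CPM in batch 1 and 38.9 and 36.1 CPM in batch 2 (log2 difference -1.05 ± 0.19 (SE), adjusted p = 8.40e-04) and Il6ra at 21.4, 16 and 11 CPM in batch 1 and 5.68 and 5.50 CPM in batch 2 (log2 difference -1.50 ± 0.44 (SE), adjusted p = 0.0237). In each receptor gene both batch 2 libraries lay below all 3 libraries of batch 1. Such separation, also seen for the ligand genes, held for 1696 of the 1698 called genes and adds nothing to their calls. Stat3, the transcription factor below gp130, and Socs3, its feedback inhibitor, fell with log2 differences of -0.63 and -0.78. Il1rl1, the receptor of IL-33, rose from 30.9, 22.2 and 24.9 CPM to 209 and 171 CPM (log2 difference 2.87 ± 0.17 (SE), adjusted p = 2.03e-09). With length offsets 4 genes of the list rose and 7 fell.

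**Figure D2:**
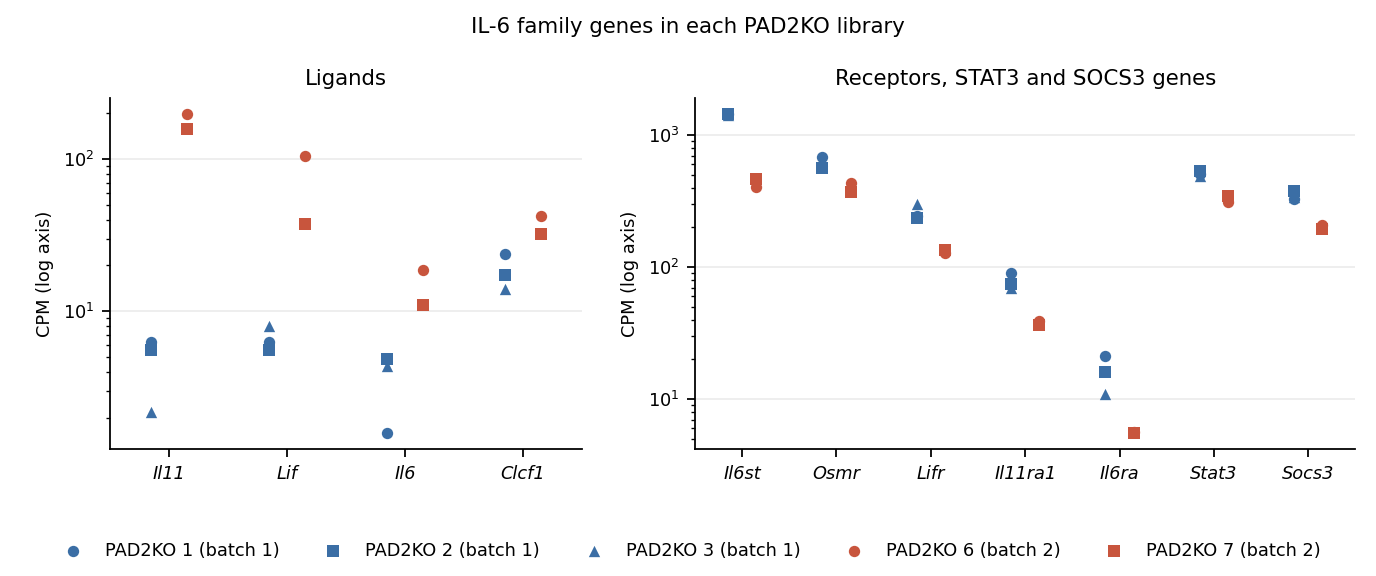
CPM on a log axis of IL-6 family ligand genes (left) and of receptor genes, Stat3 and Socs3 (right) in each PAD2KO library, with batch 1 in blue and batch 2 in red. The ligand genes lie higher in both batch 2 libraries and the other genes lie lower. All are called genes, and nearly all called genes showed no overlap of the batches.

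Type I and type III collagen genes fell. Of 15 interstitial collagen chains tested, 7 fell and 1 rose, with a median log2 difference of -0.51. Their summed level was 11774, 12907 and 13058 CPM in batch 1 and 4909 and 5249.6 CPM in batch 2. Col3a1 stood at 5241, 5169 and 6299 CPM in batch 1 and 968 and 1033 CPM in batch 2 (log2 difference -2.47 ± 0.14 (SE), adjusted p = 8.95e-10). Col1a1 and Col1a2, the chains of type I collagen, fell with log2 differences of -0.98 and -0.84, Col5a2 with -0.90 and Col14a1 with -2.20. Col13a1, a membrane collagen and the only chain that rose, was at 3.16, 4.87 and 2.93 CPM in batch 1 and 45.4 and 12.6 CPM in batch 2 (log2 difference 2.94 ± 0.56 (SE), adjusted p = 0.00361). Among 22 genes of collagen modification 6 fell and 1 rose (median -0.09). Lox, which crosslinks collagen and elastin, fell from 429, 452 and 439.6 CPM to 126 and 110.0 CPM (log2 difference -1.89 ± 0.13 (SE), adjusted p = 1.74e-08). The single rise was Adamts14, a procollagen protease, at 2.34, chosen after its value was seen.

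The elastic fibre genes gave the same counts as the collagens: of 15 tested, 7 fell and 1 rose, with a median of -0.68. Mfap4, a microfibril protein, stood at 41.9, 42.4 and 44 CPM in batch 1 and 6.49 and 2.36 CPM in batch 2 (log2 difference -3.25 ± 0.36 (SE), adjusted p = 4.53e-06). Fbn1 and Fbn2, the fibrillins of the microfibril core, fell with log2 differences of -0.84 and -1.37. Of 12 proteoglycan genes 5 fell and 3 rose (median -0.71). Besides Ogn and Podn, the falls were Aspn, Fmod and Dcn, and the rises were Cd44, the hyaluronan receptor, Vcan, the large proteoglycan versican, and Has1, a hyaluronan synthase. Cd44 stood at 159.8, 121 and 134 CPM in batch 1 and 468 and 458 CPM in batch 2 (log2 difference 1.75 ± 0.13 (SE), adjusted p = 3.88e-08), and Vcan at 363, 328 and 309 CPM in batch 1 and 694 and 828 CPM in batch 2 (log2 difference 1.19 ± 0.12 (SE), adjusted p = 1.81e-06). The median of this list was -0.10 without PAD2KO 2, -0.18 without PAD2KO 3 and -0.03 without PAD2KO 1 and PAD2KO 2.

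Matricellular genes, whose proteins sit in the matrix without building it, were split: 6 of 20 fell and 4 rose (median -0.15). Beside Ccn5, Sparcl1 fell from 362, 457 and 508 CPM to 89.2 and 57.4 CPM (log2 difference -2.59 ± 0.20 (SE), adjusted p = 3.63e-06). Postn, the gene of periostin, was chosen after its values were seen. It had 8.70, 13.2 and 32.2 CPM in batch 1 and 0.811 and 0 CPM in batch 2, with 1 count in batch 2. Spp1 led the rises. The rises numbered 2 with DESeq2, 1 with length offsets and 2 without PAD2KO 7, and the falls 2 with length offsets. Among 16 basement membrane genes 4 fell, led by Nid2, and 3 rose, led by Npnt (median -0.24). With length offsets none of these rose and 1 fell, and without PAD2KO 1 and PAD2KO 2 the falls numbered 2.

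Proteases and inhibitors that remodel the matrix moved in both directions, with 11 of 32 higher and 11 lower (median -0.21). Plau, the urokinase plasminogen activator, rose from 27.7, 37.5 and 24.9 CPM to 155 and 178 CPM (log2 difference 2.46 ± 0.17 (SE), adjusted p = 2.26e-08). Plaur, its receptor, and Plat, the tissue plasminogen activator, rose by 1.21 and 0.69 on the log2 scale. The metalloprotease Mmp13 stood at 6.33, 6.26 and 5.13 CPM in batch 1 and 64.1 and 29.9 CPM in batch 2 (log2 difference 2.97 ± 0.36 (SE), adjusted p = 1.86e-05), and Mmp2, the constitutive gelatinase of fibroblasts, at 269, 237 and 193 CPM in batch 1 and 131 and 124 CPM in batch 2 (log2 difference -0.86 ± 0.15 (SE), adjusted p = 5.19e-04). Mmp13 and Mmp10 rose while Mmp2 fell. Of the 11 falls, 6 were of ADAMTS or ADAMTS-like genes, whose proteins act in the matrix: Adamts5 stood at 222, 186 and 196 CPM in batch 1 and 42.2 and 59.7 CPM in batch 2 (log2 difference -1.97 ± 0.17 (SE), adjusted p = 2.63e-07) and Adamts1 at 599.7, 535 and 486 CPM in batch 1 and 207 and 217 CPM in batch 2 (log2 difference -1.35 ± 0.13 (SE), adjusted p = 8.22e-07). Of the inhibitors, Timp1 rose by 0.56, and Timp2 and Timp3 fell (-0.47 and -1.05). Plaur, Plat, Mmp2 and the Timp genes were chosen after their values were seen.

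Integrin subunit genes, the cell's matrix receptors, rose in 6 of 12 cases and fell in 2 (median 0.49). Itgb3 stood at 18.2, 17.4 and 10.3 CPM in batch 1 and 57.6 and 55.8 CPM in batch 2 (log2 difference 1.89 ± 0.25 (SE), adjusted p = 4.12e-05), and Itga5, of the fibronectin receptor, at 297, 373 and 243 CPM in batch 1 and 542 and 554 CPM in batch 2 (log2 difference 0.85 ± 0.14 (SE), adjusted p = 6.18e-04). The subunits that fell were Itga1, of a collagen receptor, at 143, 150.2 and 183 CPM in batch 1 and 43 and 66.8 CPM in batch 2, and Itga8, of a nephronectin receptor, at 255, 299.7 and 264 CPM in batch 1 and 94.1 and 127 CPM in batch 2 (log2 difference -1.30 ± 0.15 (SE), adjusted p = 9.03e-06). The rises numbered 2 with length offsets and 3 without PAD2KO 7. Smooth muscle contractile and actin genes changed in 5 of 29 cases, with 4 lower, led by Des and Mylk, and 1 higher, Smtn (median -0.21). Among all genes 7.91% were lower and 8.78% higher. Mylk, the myosin light chain kinase, stood at 610.0, 723 and 762 CPM in batch 1 and 315 and 397 CPM in batch 2 (log2 difference -0.97 ± 0.14 (SE), adjusted p = 7.70e-05). The falls of this list numbered 2 with length offsets, 8 without PAD2KO 1 and 2 without PAD2KO 6.

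In the list of PDGF, FGF, HGF and VEGF signalling with EGF receptor ligands, 8 of 23 genes rose and 4 fell (median 0.32). Hbegf stood at 16.6, 6.26 and 10.3 CPM in batch 1 and 61.6 and 65.2 CPM in batch 2 (log2 difference 2.54 ± 0.29 (SE), adjusted p = 5.75e-06), and Nrg1, Ereg and Areg rose by 1.91, 1.25 and 2.55 on the log2 scale. Dusp6, a phosphatase induced by and acting on ERK, was at 82.3, 94.6 and 94.5 CPM in batch 1 and 299 and 325 CPM in batch 2 (log2 difference 1.79 ± 0.13 (SE), adjusted p = 3.26e-08), and Spry4, a feedback inhibitor of receptor tyrosine kinases, rose by 1.48. Fgf7, a fibroblast factor for epithelium, rose from 170.1, 163 and 151 CPM to 439 and 365 CPM (log2 difference 1.32 ± 0.13 (SE), adjusted p = 7.97e-07). Fgf10, another such factor, stood at 158, 117 and 120.2 CPM in batch 1 and 120.0 and 145 CPM in batch 2 and was not called (log2 difference 0.01 ± 0.16 (SE), adjusted p = 0.966). The falls were Vegfd, Nrp1, Fgfr2 and Pdgfrb, and numbered 2 with DESeq2, with length offsets and without any of PAD2KO 2, 3, 6 or 7. Nrg1, Ereg, Areg, Spry4 and Fgf10 were chosen after their values were seen.

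Genes of the insulin-like growth factor axis were split, with 4 of 14 higher and 5 lower (median -0.49). The median of the same genes was -0.19 without PAD2KO 1 and -0.14 without PAD2KO 1 and PAD2KO 2, and 0.17 over the 15 genes tested in that last fit. Igf1, the ligand, fell from 120.3, 108 and 147 CPM to 29.2 and 40.1 CPM (log2 difference -1.85 ± 0.20 (SE), adjusted p = 2.97e-06). Igf2r, the receptor that clears IGF-II, fell from 385, 380.3 and 425 CPM to 118 and 129.7 CPM (log2 difference -1.68 ± 0.13 (SE), adjusted p = 8.09e-08). Igfbp5, a binding protein, rose from 535, 585 and 473 CPM to 1544 and 1218 CPM (log2 difference 1.38 ± 0.13 (SE), adjusted p = 5.92e-07), and Pappa, a protease of such binding proteins, stood at 68.8, 65.4 and 60.1 CPM in batch 1 and 22.7 and 10.2 CPM in batch 2 (log2 difference -1.97 ± 0.27 (SE), adjusted p = 4.48e-05). The rises numbered 2 with DESeq2, 2 with length offsets, 2 without PAD2KO 3 and 2 without PAD2KO 6. Among 14 imprinted growth genes none rose and 5 fell (median -0.48), Igf2r and Plagl1 among them. Those falls numbered 3 with DESeq2, 2 with length offsets, 3 without PAD2KO 2, 3 without PAD2KO 3 and 3 without PAD2KO 6.

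In the Wnt list 8 of 22 genes fell and 3 rose (median -0.42). Wnt2, the main Wnt ligand of distal lung mesenchyme, stood at 88.6, 95.9 and 120.2 CPM in batch 1 and 30.8 and 31.4 CPM in batch 2 (log2 difference -1.70 ± 0.20 (SE), adjusted p = 8.48e-06), and Rspo2, an amplifier of Wnt signals, at 46.7, 34.1 and 36.6 CPM in batch 1 and 4.87 and 5.50 CPM in batch 2 (log2 difference -2.88 ± 0.34 (SE), adjusted p = 1.15e-05). Both were lower in every batch 2 library than in batch 1, which held for all 805 called falls. The secreted inhibitors went in different directions: Sfrp2 fell from 1369, 1759.7 and 1604 CPM to 599 and 528 CPM (log2 difference -1.48 ± 0.13 (SE), adjusted p = 4.88e-07) and Frzb rose from 104, 94.6 and 117 CPM to 352 and 279 CPM (log2 difference 1.58 ± 0.14 (SE), adjusted p = 4.21e-07). The falls numbered 5 with length offsets and 5 without PAD2KO 7. TGF-beta genes rose in 7 of 25 cases and fell in 3, against 8.78% and 7.91% of all genes (median 0.16). The ligand genes Tgfb2 and Tgfb3 were among the falls, Tgfb3 at 353, 346 and 333 CPM in batch 1 and 135 and 145 CPM in batch 2 (log2 difference -1.29 ± 0.13 (SE), adjusted p = 1.14e-06). Inhba, the subunit of activin A, and Fst, the activin antagonist follistatin, rose together, by 1.07 and 1.22. BMP genes were split at 4 higher and 4 lower of 20 (median -0.11). Bmp3 and Gdf10 fell, and Bmp2 and Grem1, a BMP antagonist, rose, with Grem1 at 415, 335 and 293 CPM in batch 1 and 558 and 554 CPM in batch 2 (log2 difference 0.68 ± 0.13 (SE), adjusted p = 0.00148). The rises of this list numbered 2 with DESeq2, 2 with length offsets and 2 without PAD2KO 7, and its falls 2 without PAD2KO 6. The rises of the TGF-beta list numbered 3 with length offsets, and its falls 1 with DESeq2, 1 with length offsets and 1 without PAD2KO 7.

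Of 31 transcription factors of lung mesenchyme 5 fell and 4 rose, against 7.91% and 8.78% of all genes (median -0.25). Osr1 stood at 37.2, 36.8 and 33 CPM in batch 1 and 8.11 and 6.29 CPM in batch 2 (log2 difference -2.29 ± 0.32 (SE), adjusted p = 5.65e-05) and Prrx1 at 98.9, 95.9 and 92.3 CPM in batch 1 and 157 and 149 CPM in batch 2 (log2 difference 0.68 ± 0.13 (SE), adjusted p = 0.00167). Twist2 rose from 2.37, 2.78 and 5.86 CPM to 20.3 and 21.2 CPM (log2 difference 2.47 ± 0.44 (SE), adjusted p = 6.36e-04). Tcf21, a factor of lipid-storing lung fibroblasts chosen after its values were seen, stood at 7.91, 12.5 and 8.79 CPM in batch 1 and 0 and 1.57 CPM in batch 2, with 2 counts in batch 2. Among alveolar fibroblast markers 4 of 8 fell, among them Wnt2, Itga8 and Limch1, and 2 rose, among them Npnt. Among adventitial markers Col14a1 and Mfap5 fell, and Cd34 and Has1 rose. The factor rises numbered 2 with DESeq2, 2 with length offsets and 2 without PAD2KO 7, and the falls 3 with DESeq2, 1 with length offsets, 3 without PAD2KO 6 and 3 without PAD2KO 7.

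Of the inflammatory groups, prostaglandin genes rose in 5 of 13 cases and fell in 1 (median 0.37). Ptges, the inducible prostaglandin E synthase that acts after COX-2, stood at 203, 243 and 216 CPM in batch 1 and 1271 and 781 CPM in batch 2 (log2 difference 2.22 ± 0.18 (SE), adjusted p = 2.02e-05), and Pla2g4a, the phospholipase that releases arachidonic acid, at 138, 114 and 127 CPM in batch 1 and 306 and 231 CPM in batch 2 (log2 difference 1.09 ± 0.14 (SE), adjusted p = 3.67e-05). Pla2g4a, Ptgs2 and Ptges, a gene for each step from membrane lipid to prostaglandin E2, thus rose in both libraries of batch 2. Of the 13 genes tested, 7 were not called. The rises numbered 3 with length offsets and 3 without PAD2KO 7. NF-kB and TNF response genes rose in 7 of 30 cases and none fell (median 0.29). Ier3 stood at 155, 130.0 and 136 CPM in batch 1 and 553 and 379 CPM in batch 2 (log2 difference 1.74 ± 0.15 (SE), adjusted p = 4.88e-07) and Nfkbiz, an atypical inhibitor of NF-kB, at 196, 164 and 162 CPM in batch 1 and 397 and 273 CPM in batch 2 (log2 difference 0.95 ± 0.15 (SE), adjusted p = 3.14e-04). Tnfaip3, the feedback inhibitor A20, rose from 3.96, 2.78 and 1.47 CPM to 25.9 and 11 CPM (log2 difference 2.73 ± 0.54 (SE), adjusted p = 0.00146). The list's summed level was 2093, 1892 and 1954 CPM in batch 1 and 4088 and 2410.2 CPM in batch 2, so PAD2KO 6 was the higher library. The rises numbered 4 with length offsets, 4 without PAD2KO 6, 12 without PAD2KO 7 and 11 without PAD2KO 1 and PAD2KO 2.

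Several acute phase and chemokine genes were among those that differed most between PAD2KO 6 and PAD2KO 7. The chemokine list summed to 767, 643 and 605 CPM in batch 1 and 2518 and 846 CPM in batch 2, with 1 of 9 genes higher, Cx3cl1, and 1 lower, Cxcl12. The rises numbered 3 with DESeq2, 2 with length offsets, 2 without PAD2KO 1, 0 without PAD2KO 3, 2 without PAD2KO 6, 4 without PAD2KO 7 and 6 without PAD2KO 1 and PAD2KO 2. Ccl2, the monocyte chemokine, stood at 97.3, 61.9 and 82.8 CPM in batch 1 and 1490.4 and 299 CPM in batch 2: both batch 2 libraries exceeded batch 1, and the difference did not pass the test (log2 difference 3.48 ± 0.89 (SE), adjusted p = 0.111). Saa3, an acute phase protein gene, had 44.3, 7.65 and 16.1 CPM in batch 1 and 692 and 25.9 CPM in batch 2, and Cxcl1, a neutrophil chemokine, 15, 3.48 and 13.9 CPM in batch 1 and 99.7 and 11 CPM in batch 2. For both, PAD2KO 7 lay within the range of batch 1 and PAD2KO 6 above it. The complement gene C3 had 353, 104 and 144 CPM in batch 1 and 156 and 15.7 CPM in batch 2, with PAD2KO 7 the lowest of the 5. These 4 genes were chosen after their values were seen. Rps27rt, a near-identical copy of the ribosomal protein gene Rps27, differed most of all between these libraries, and reads may have been divided between the copies. S100a8, a neutrophil calcium-binding protein gene, rose from 0, 0.695 and 0.733 CPM to 46.2 and 20.4 CPM (log2 difference 5.83 ± 0.65 (SE), adjusted p = 3.83e-06), while S100a9, its usual partner, was at 0 in all 5 libraries and 4 of the 10 neutrophil and mast cell markers were at 0 in every PAD2KO library. The part of such cells, and that of the leukocyte list, in the S100a8 rise was not tested.

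Complement genes fell in 6 of 12 cases and none rose (median -1.52). The rises numbered 1 without PAD2KO 1, 1 without PAD2KO 2, 1 without PAD2KO 6 and 2 without PAD2KO 1 and PAD2KO 2, and the median was -0.99 without PAD2KO 7 and -2.30 without PAD2KO 6. Serping1, the C1 inhibitor, stood at 573, 552 and 541 CPM in batch 1 and 321 and 175 CPM in batch 2 (log2 difference -1.16 ± 0.22 (SE), adjusted p = 0.00796), and C1ra, a protease of the first component, at 103, 77.9 and 86.5 CPM in batch 1 and 38.9 and 14.1 CPM in batch 2 (log2 difference -1.74 ± 0.31 (SE), adjusted p = 0.00344). Both genes were lowest in PAD2KO 7. Interferon-stimulated genes fell in 7 of 32 cases and none rose (median -0.34). Ifit3 stood at 22.9, 25.7 and 22.7 CPM in batch 1 and 8.92 and 3.93 CPM in batch 2 (log2 difference -1.88 ± 0.38 (SE), adjusted p = 0.00181), and Iigp1, an immunity-related GTPase, at 83.9, 100.1 and 89.4 CPM in batch 1 and 51.9 and 49.5 CPM in batch 2 (log2 difference -0.84 ± 0.17 (SE), adjusted p = 0.00177). The summed level of the list was 1593, 1869 and 1725 CPM in batch 1 and 1922 and 1221 CPM in batch 2, so PAD2KO 6 lay above batch 1 and PAD2KO 7 below it. The falls numbered 4 with DESeq2, 1 with length offsets, 4 without PAD2KO 2, 3 without PAD2KO 3 and 3 without PAD2KO 7. The median was -0.01 without PAD2KO 7 (0.01 over the genes tested in that fit) and -0.72 without PAD2KO 6. Of 16 MHC class I and peptide loading genes 4 fell and 2 rose, against 7.91% and 8.78% of all genes (median -0.28). H2-K1, a class I heavy chain with close copies, stood at 79.9, 119.6 and 116 CPM in batch 1 and 51.9 and 47.9 CPM in batch 2 (log2 difference -1.07 ± 0.19 (SE), adjusted p = 7.20e-04). The falls of that list numbered 1 with DESeq2, 2 with length offsets, 2 without PAD2KO 3 and 2 without PAD2KO 7.

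Of 32 cholesterol and fatty acid genes 17 fell and 1 rose, Fasn, with a median of -0.49, against 7.91% lower among all genes. Hmgcs1, an early enzyme of the mevalonate pathway, stood at 265, 311 and 279.9 CPM in batch 1 and 152 and 119 CPM in batch 2 (log2 difference -1.08 ± 0.14 (SE), adjusted p = 3.74e-05). Lss, which closes the sterol ring, was at 112, 122 and 92.3 CPM in batch 1 and 64.1 and 52.7 CPM in batch 2 (log2 difference -0.89 ± 0.17 (SE), adjusted p = 0.00129), and Cyp51, a demethylase of the next steps, at 187, 185 and 172 CPM in batch 1 and 119 and 99 CPM in batch 2 (log2 difference -0.73 ± 0.14 (SE), adjusted p = 0.00129). In each of these genes, as in all 805 called falls, both batch 2 libraries lay below batch 1, and here PAD2KO 7 was the lower. Sqle, which encodes squalene epoxidase, fell with a log2 difference of -0.60 and was picked with its value known. The falls numbered 10 with DESeq2, 5 with length offsets and 4 without PAD2KO 7. Lysosome and autophagy genes fell in 9 of 24 cases and none rose (median -0.31). Gaa, which degrades glycogen in lysosomes, stood at 434, 378 and 363 CPM in batch 1 and 217 and 167 CPM in batch 2 (log2 difference -1.03 ± 0.14 (SE), adjusted p = 4.64e-05), and Lamp2, a lysosomal membrane protein, at 968, 770.3 and 912 CPM in batch 1 and 506 and 468 CPM in batch 2 (log2 difference -0.86 ± 0.13 (SE), adjusted p = 1.18e-04).

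Glycolysis and hypoxia response genes rose in 14 of 29 cases and none fell (median 0.37). Slc2a1, the glucose transporter GLUT1, stood at 79.9, 65.4 and 70.3 CPM in batch 1 and 173 and 161 CPM in batch 2 (log2 difference 1.22 ± 0.14 (SE), adjusted p = 1.00e-05), and Ldha, which makes lactate, at 1432, 1562 and 1419.8 CPM in batch 1 and 2498 and 2527 CPM in batch 2 (log2 difference 0.77 ± 0.11 (SE), adjusted p = 8.52e-05). Pgk1 and Pgam1, of the lower part of glycolysis, rose by 0.88 and 0.84 on the log2 scale. The summed level was 11476, 13234 and 11121 CPM in batch 1 and 18052 and 19134 CPM in batch 2, without overlap of the batches. NRF2 targets rose in 11 of 27 cases and fell in 3, against 8.78% and 7.91% of all genes (median 0.37). Nqo1, a quinone reductase, stood at 31.6, 28.5 and 29.3 CPM in batch 1 and 98.1 and 108 CPM in batch 2 (log2 difference 1.79 ± 0.18 (SE), adjusted p = 1.28e-06), and Prdx6, a peroxiredoxin, at 288, 318 and 295 CPM in batch 1 and 788 and 667 CPM in batch 2 (log2 difference 1.28 ± 0.12 (SE), adjusted p = 5.76e-07). Gpx3, a secreted glutathione peroxidase, fell by 1.00. The rises numbered 7 with length offsets. Genes of the unfolded protein response and of heat shock rose in 14 of 28 cases and fell in 2 (median 0.50). Hspa5, the endoplasmic reticulum chaperone BiP, stood at 716, 658 and 720.2 CPM in batch 1 and 1223 and 1202 CPM in batch 2 (log2 difference 0.80 ± 0.11 (SE), adjusted p = 6.29e-05), and Hsph1, a cytosolic chaperone, rose by 0.99. The rises numbered 8 with length offsets and 9 without PAD2KO 7.

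Cell cycle genes were examined as lists of DNA replication, of mitosis and of p53 targets with inhibitors. In the G1/S list 13 of 33 genes rose and none fell (median 0.54). Rrm2, a ribonucleotide reductase subunit, stood at 109, 147 and 158 CPM in batch 1 and 307 and 274 CPM in batch 2 (log2 difference 1.07 ± 0.15 (SE), adjusted p = 6.40e-05), and Ccne2, cyclin E2, at 6.33, 17.4 and 11.7 CPM in batch 1 and 34.9 and 36.9 CPM in batch 2 (log2 difference 1.58 ± 0.32 (SE), adjusted p = 0.00206). PAD2KO 1 was the lowest library for both. The rises numbered 6 with DESeq2, 3 with length offsets, 8 without PAD2KO 1, 8 without PAD2KO 3, 7 without PAD2KO 6 and 6 without PAD2KO 7. In the G2/M list 1 of 33 genes rose, Cks2, and none fell (median 0.18), and the summed level was 2109.9, 3672 and 3661 CPM in batch 1 and 3362 and 3807 CPM in batch 2. Whether the G1/S and G2/M lists differ in their shift was not tested. Of the p53 targets and cell cycle inhibitors 8 of 17 rose and 1 fell (median 0.44). Mdm2, the ubiquitin ligase that p53 induces, stood at 173, 153 and 151 CPM in batch 1 and 319 and 286 CPM in batch 2 (log2 difference 0.93 ± 0.13 (SE), adjusted p = 4.48e-05). The rises of this list numbered 4 with DESeq2, 1 with length offsets, 5 without PAD2KO 2, 4 without PAD2KO 3, 3 without PAD2KO 6 and 5 without PAD2KO 7. Immediate early genes rose in 6 of 20 cases and fell in 1 (median 0.28). Nr4a2, an orphan nuclear receptor, stood at 11.9, 6.26 and 7.33 CPM in batch 1 and 64.9 and 49.5 CPM in batch 2 (log2 difference 2.76 ± 0.29 (SE), adjusted p = 2.50e-06), and Myc, the growth regulator, at 45.1, 41.7 and 42.5 CPM in batch 1 and 82.7 and 84.9 CPM in batch 2 (log2 difference 0.96 ± 0.17 (SE), adjusted p = 6.69e-04). Ribosomal protein genes rose in 8 of 52 cases and none fell (median 0.24), and those rises numbered 4 with DESeq2, 2 with length offsets, 4 without PAD2KO 1, 1 without PAD2KO 3, 3 without PAD2KO 6 and 1 without PAD2KO 7. YAP and TEAD targets rose in 4 of 22 cases, led by Ankrd1, and fell in 2, against 8.78% and 7.91% of all genes. Those rises numbered 2 with DESeq2 and 1 without PAD2KO 7. Of 32 nuclear-encoded respiratory chain genes 1 fell and none rose, and none of 13 mitochondrial mRNAs was called.

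**Figure D3:**
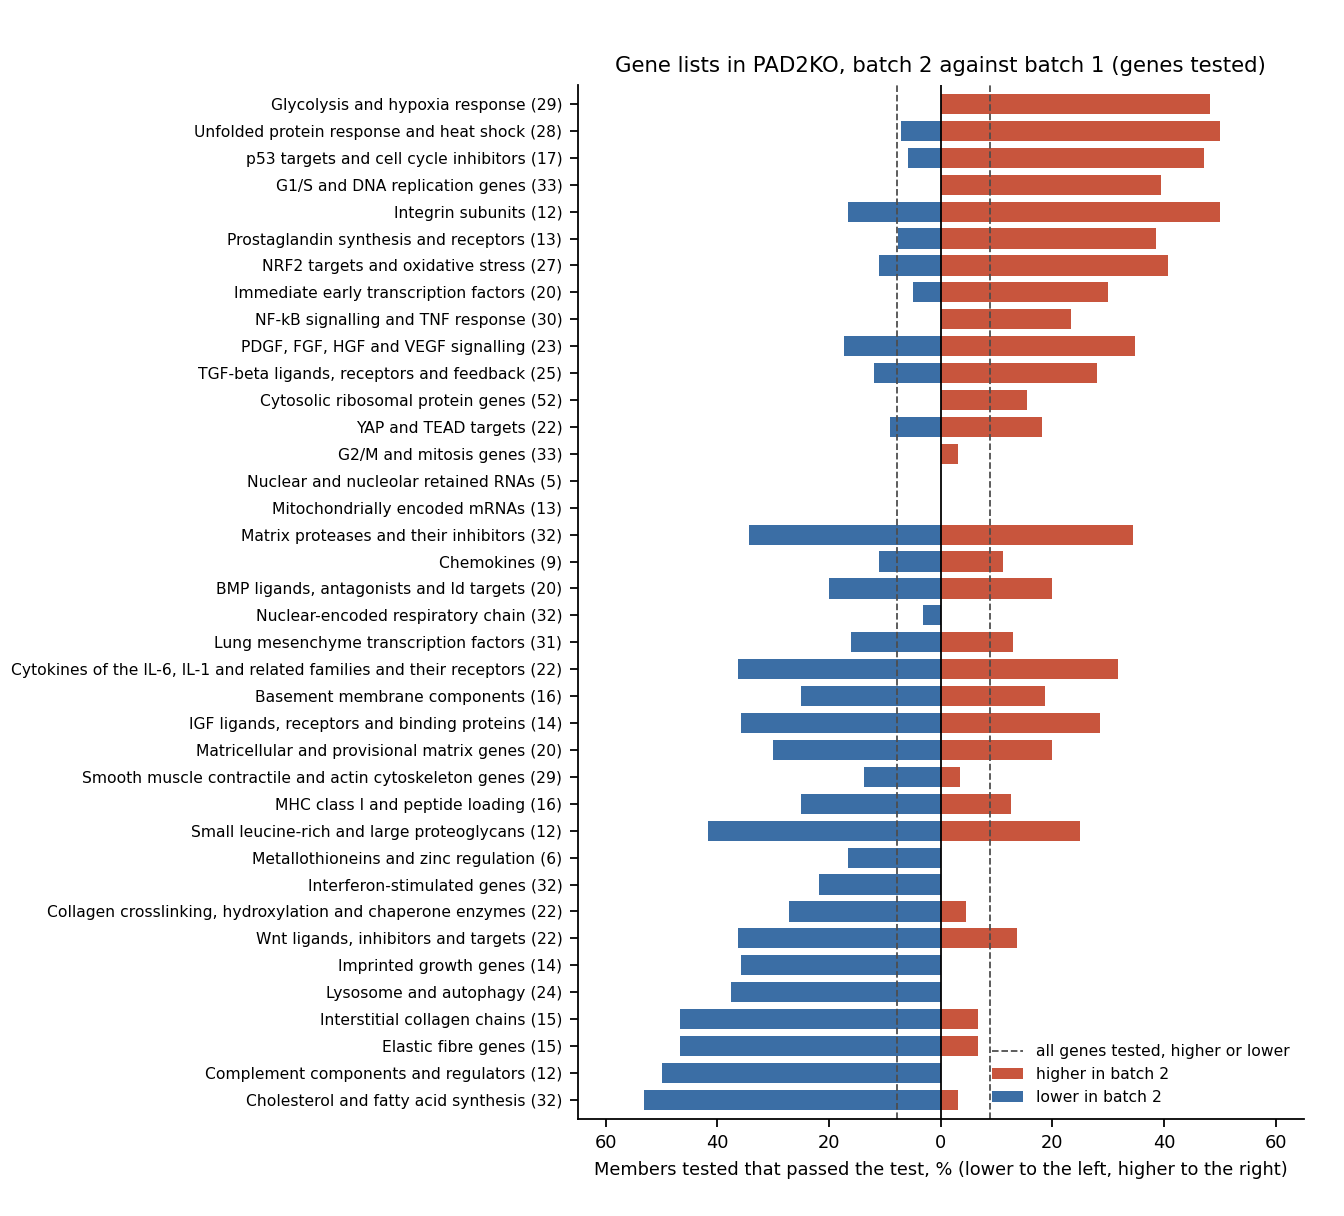
Share of the tested members of each gene list that rose (red, to the right) or fell (blue, to the left) in batch 2 of the PAD2KO libraries, in percent, with the number of genes tested in parentheses and the lists ordered by the share higher minus the share lower. Dashed lines give the shares over all genes tested, 8.78% higher and 7.91% lower; glycolysis and hypoxia genes lie at the top with 14 of 29 higher, and cholesterol and fatty acid genes at the bottom with 17 of 32 lower.

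Most genes that differed between the batches in PAD2KO cells had the same direction in WT cells, which share no library with them. In the fit of all 11 libraries 2313 of 10731 genes (21.6%) differed between the batches in WT. Of the 1698 genes called in PAD2KO, 1582 (93.2%) had the same sign in WT. The share with the same sign among all genes compared was not counted. Genes called with the same sign in both genotypes numbered 1053, which is 62.0% of the PAD2KO calls and 47.8% of the 2204 WT calls that were tested in PAD2KO. Another 17 were called with opposite signs. Across the 10176 genes the log2 differences of the genotypes had a Pearson correlation of 0.69 and a Spearman correlation of 0.58, a description over genes, which are not independent. Il11 differed by 5.22 in PAD2KO and 5.60 in WT, Ogn by -4.46 and -4.02, Col3a1 by -2.47 and -2.19, and Il6st by -1.73 and -2.04. Ecrg4 and Kit, among the largest falls in PAD2KO, also fell in WT, with log2 differences of -5.25 and -2.42.

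A test of the difference itself, the batch difference of PAD2KO minus that of WT, called 155 of 10731 genes (1.44%), 64 with a positive and 91 with a negative value. The 2 genotypes had opposite signs for 87 of them. For 54 the sign was shared and the difference smaller in PAD2KO, and for 14 it was larger in PAD2KO. The calls numbered 34 without PAD2KO 7, 91 without WT 3, 97 without PAD2KO 3, 26 with length offsets and 323 without a filter on low counts, so how many genes differ depends on single libraries.

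**Figure D4:**
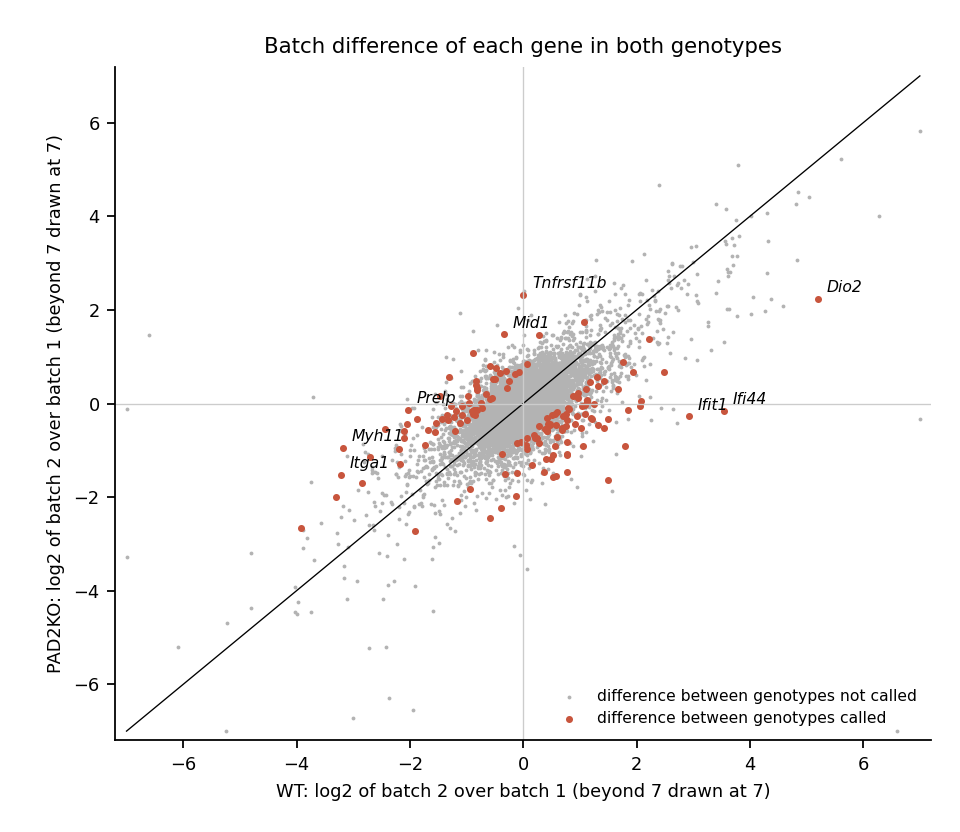
Log2 of batch 2 over batch 1 for each gene in WT (horizontal axis) and PAD2KO (vertical axis), with equality as the black line. Red points are genes whose batch difference differed between the genotypes; most points follow the line, and Ifi44, Ifit1 and Dio2 lie below it, with WT differences above those in PAD2KO.

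Interferon-stimulated genes made up 13 of the 91 negative calls over all 10731 genes, from 46 members tested. Only 32 members passed the count filter in the PAD2KO libraries alone. The others passed it only with the WT libraries included, so calls among them were not independent of that filter. How many of the 13 calls fell among them was not counted. Ifi44 stood at 7.91, 8.34 and 6.59 CPM in batch 1 and 8.92 and 4.72 CPM in batch 2 in PAD2KO, without separation of the batches, and went from 5.29 ± 1.17 to 64 ± 23.3 CPM (mean ± SD, n = 3 per batch) in WT. The difference between the genotypes was -3.71 ± 0.58 (SE), adjusted p = 5.87e-04, called in all 11 fits that leave out a library. Ifit1 stood at 16.6, 11.8 and 13.9 CPM in batch 1 and 13 and 10.2 CPM in batch 2 in PAD2KO and went from 13.4 ± 1.37 to 104 ± 54.8 CPM in WT, a difference of -3.19 ± 0.62 (SE), adjusted p = 0.0201, called in 5 of the 11 fits. Over the 32 members tested in the PAD2KO fit, the median was -0.34 in PAD2KO and 1.12 in WT. Dio2, a deiodinase that activates thyroid hormone, rose in both genotypes, but less in PAD2KO. It stood at 15, 11.1 and 12.5 CPM in batch 1 and 87.6 and 34.6 CPM in batch 2 in PAD2KO and went from 11 ± 3.57 to 413 ± 14.6 CPM in WT.

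Of 32 cholesterol and fatty acid genes tested, 9 had negative calls and none a positive one, against 91 and 64 of all 10731 genes, with medians of -0.49 in PAD2KO and 0.15 in WT. Idi1, an isomerase of the mevalonate pathway picked after its values were seen, stood at 118, 104 and 132 CPM in batch 1 and 94.1 and 69.2 CPM in batch 2 in PAD2KO and went from 81.2 ± 13.7 to 129.9 ± 14 CPM in WT. Of 29 contractile and actin genes 10 had positive calls and none a negative one, with medians of -0.21 in PAD2KO and -0.90 in WT. Myh11, the smooth muscle myosin heavy chain, stood at 138, 289.9 and 205 CPM in batch 1 and 98.9 and 120.2 CPM in batch 2 in PAD2KO and fell from 287 ± 47.7 to 31.5 ± 1.71 CPM in WT. Its difference between the genotypes was 2.23 ± 0.40 (SE), adjusted p = 0.0266, called in 3 of the 11 fits. Acta2, smooth muscle actin, was picked after its values were seen. It stood at 3621, 5764 and 4699.9 CPM in batch 1 and 3005 and 3914 CPM in batch 2 in PAD2KO, where the batches overlapped, and went from 5119 ± 207 to 1228 ± 114 CPM in WT. Prelp, a leucine-rich repeat matrix protein, stood at 83.1, 84.1 and 75.5 CPM in batch 1 and 53.5 and 93.5 CPM in batch 2 in PAD2KO and fell from 118 ± 15.3 to 29 ± 6.90 CPM in WT. Mid1, a microtubule-associated ubiquitin ligase encoded on the X chromosome, stood at 53.8, 41 and 65.2 CPM in batch 1 and 137 and 159 CPM in batch 2 in PAD2KO and went from 65.6 ± 16 to 51.8 ± 9.84 CPM in WT. Tnfrsf11b, the decoy receptor osteoprotegerin, rose from 11.1, 13.2 and 13.2 CPM to 55.1 and 69.9 CPM in PAD2KO and went from 19.9 ± 12.4 to 19.2 ± 6.57 CPM in WT.

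**Figure D5:**
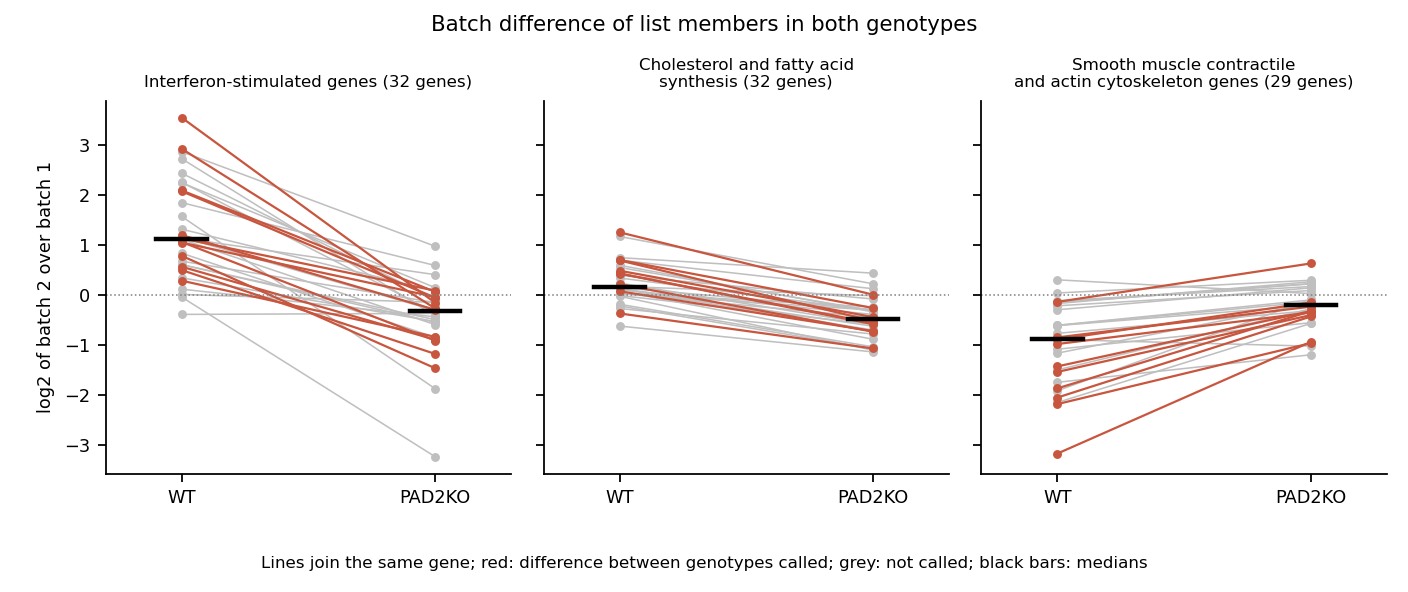
Log2 of batch 2 over batch 1 in WT and PAD2KO for members of 3 gene lists that were tested in both fits, with a line for each gene and black bars for the medians. Red lines mark genes whose batch difference differed between the genotypes; interferon-stimulated and cholesterol genes lie lower in PAD2KO and contractile genes lie higher.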

How the data were processed

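The authors deposited 1 table of 56065 entries with estimated counts, TPM values (length-scaled transcript shares) and effective lengths for each library, per the file headers. The submitters' processing notes name GRCm39 and the tools Salmon 1.3.2, fastp and DESeq2 1.46.0, with roles not given in the sources used here. Per the labels' protocols, cDNA was made from sorted cells with a SMARTer kit; strand and molecular identifiers are not stated, so intervals cover counting error only. The deposited estimated counts were rounded and summed per gene symbol, and entries without a symbol (3.80% to 6.29% of counts) were left out. Genes passing filterByExpr were tested in the 5 PAD2KO libraries with edgeR 4.0.16 (quasi-likelihood, robust, TMM), and Benjamini-Hochberg adjusted p-values were taken over all genes tested. The interaction and the WT contrast came from 1 fit of all 11 libraries. CPM were scaled by TMM. The deposited TPM served only as levels per length, and their means are printed for some named genes. The tests were checked on simulated data. Counts there were drawn independently for each gene, with a spread set by its level alone. Far fewer genes were changed than were called in the data. Differences between libraries, such as those of Xist or of gene lengths, were not simulated. The false calls below therefore do not give the error rate in the real data. For PAD2KO batch 2 against batch 1, 58.5% of genes set to a log2 change of 1 and 4.55% of those set to 0.5 were called. There 4 of 99 calls were false. For the interaction these shares were 41.5% and 4.69%, and 9 of 93 calls were false. The members and gene lists were chosen with earlier results of these data known. Named genes were the 15 largest rises and 15 largest falls at adjusted p under 0.05 whose mean log2 CPM was 3 or more, with batch ranges that do not overlap and the same sign without each library; the 8 largest positive and 8 largest negative interaction values; and, per list, the 4 or fewer members of smallest p. Other genes were chosen after their values were seen. Alternatives were DESeq2, other scalings and filters, length offsets, all 11 libraries in 1 fit, no robust fit, and each library left out. Some genes are not reported here.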

Additional observations from a re-analysis of the deposited data

Results flagged for a closer look

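For 16 genes the batch difference of the PAD2KO libraries differed from that of the WT libraries, by the interaction term of edgeR's quasi-likelihood test with Benjamini-Hochberg adjustment. The values are log2 batch differences of PAD2KO minus those of WT. Positive values were found for Tnfrsf11b (2.31), Myh11 (2.23), Nrcam, a neuronal adhesion molecule (1.97), Prelp (1.90), Irag1, a smooth muscle regulator of calcium release (1.88), the survival gene Bcl2 (1.86), Mid1 (1.82) and Itga1 (1.69). Negative values were found for Ifi44 (-3.71), Trim30a (-3.52), Ifit1 (-3.19), the prostaglandin F receptor gene Ptgfr (-3.14), Dio2 (-2.96), Iigp1c (-2.70), Gbp7 (-2.25) and Oasl2 (-2.13). Of these 8 genes, Ifi44, Trim30a, Ifit1, Iigp1c, Gbp7 and Oasl2 are interferon-stimulated, and Iigp1c has near-identical copies. Prelp, Irag1, Mid1, Ifi44 and Trim30a were called in all 11 fits that leave out a library, and Iigp1c, Ptgfr and Myh11 in 2, 3 and 3. Trim30a stood at 3.93 to 7.65 CPM in the PAD2KO libraries and at 36.5 ± 7.74 CPM (mean ± SD) in WT batch 2. It passed the count filter only through WT batch 2, so its calls were not independent of that filter. Without PAD2KO 7, 6 of the 16 genes were still called, and without PAD2KO 3, 8.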

How the results depend on the processing

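The count of genes that differed between the PAD2KO batches, 1698, fell to 890 with DESeq2 and to 658 with length offsets, where 622 genes were shared. It ranged from 961 (without PAD2KO 7) to 1536 (without PAD2KO 1) when single libraries were left out, with 1077 without PAD2KO 6 and 1131 without PAD2KO 3. With library totals as the only scaling 45.5% of the calls were higher, against 52.6%. No filter gave 1924 calls and the 3 libraries left without PAD2KO 1 and PAD2KO 2 gave 1381. The interaction count, 155, became 323 without a filter and 26 with length offsets. It ranged from 34 (without PAD2KO 7) to 222 (without PAD2KO 6), with 91 without WT 3 and 97 without PAD2KO 3. Over 171 named genes and list members, 2420 of 2548 alternative values kept direction and side of the threshold, 99 lost the call, 28 gained it and 1 reversed: Xist, -0.56 without PAD2KO 1 and PAD2KO 2. Of 569 alternative list medians 95 moved by more than their spread. The cause of these changes was not tested. Low totals limit genes of a few counts.

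No paired analysis was possible for PAD2KO batch 2 against batch 1 because the batches share no replicate numbers. The interaction fit with the replicate number as a block gave 101 calls, 81 of them shared. Deviations of same-numbered libraries correlated at 0.013 to 0.036, so the numbers were not taken as pairs.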
